A study of Mus musculus with 220 samples.

Results

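FVB/NJ is an albino inbred strain derived from Swiss mice and is widely used to make transgenic animals. Liver RNA of 3 F1 mice with an FVB/NJ mother was measured, among 220 mice of 96 strains in all, and these 3 mice were set against 62 mice of 28 other classical inbred strains. The 3 mice were chosen by their strain label, and the comparison took in every strain that was not a recombinant inbred line of the BXD, AXB, BXA, CXB or BXH sets. Of the 28 other strains, 8 had 3 mice, 18 had 2 mice and 2 had 1 mouse.

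All 65 classical mice were females of 24 weeks. Each was bred from a mother of the named strain and a C57BL/6J father, and each carried the human transgenes for APOE-Leiden and CETP, the first a variant apolipoprotein E that slows the clearance of lipoprotein remnants and the second a plasma protein that moves cholesteryl ester between lipoproteins, which mice lack. They ate chow for 8 weeks and then a Western diet with added cholesterol for 16 weeks. Because the father was C57BL/6J, every FVB/NJ F1 mouse held 1 FVB/NJ copy and 1 C57BL/6J copy of each autosomal gene, and the C57BL/6J group held C57BL/6J copies only. A recessive difference of FVB/NJ is therefore not laid bare in these animals. The copy number and insertion sites of the transgenes were not analysed here, and the labels name no litter, cage or array batch.

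FVB/NJ is known for the loss of several gene functions. It carries the albino allele of Tyr and the retinal degeneration allele of Pde6b, it lacks complement C5, the product of Hc, and its H2q haplotype makes no E-alpha chain of MHC class II because H2-Ea is not expressed from it. The H2b haplotype of the C57BL/6J father lacks that chain as well. SWR/J and SJL/J share its Swiss origin, and NOD/ShiLtJ was counted with them as Swiss-derived here. The liver takes up drugs and bile acids, makes fat from carbohydrate and clears particles from portal blood, and inbred strains are known to differ in each of these tasks.

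Expression was measured on Affymetrix arrays and given on the log2 scale after robust multi-array averaging (RMA), so that a difference of 1 is a doubling. One probe set, the brightest on average, stood for each of 17097 genes. A difference is FVB/NJ minus the unweighted mean of the 28 other strain means, and a gene was called when its adjusted p in limma was under 0.05, with the spread taken from mice of the same strain. Such p-values say that FVB/NJ mice differed from the mean of the others by more than mice of 1 strain differ among themselves, not that FVB/NJ stood outside the range of strains. A stricter test set the FVB/NJ mean against the spread of the 28 other strain means. The FVB/NJ arrays had medians of 3.45 to 3.48, among 3.43 to 3.56 in all mice. RMA brings all arrays to a shared distribution, so these medians cannot show whether the arrays were alike in signal or RNA quality.

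The tissue matched its label. Albumin (Alb) was at 13.53, 13.33 and 13.48 in FVB/NJ mice 1, 2 and 3, against 13.37 to 13.63 in the other strain means, transthyretin (Ttr) and Apoa1 were also near the top of the scale, and 0 of 16 measured hepatocyte genes were called.

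Over mice, 1611 of 17097 genes were called in limma, 9.42% of all. Of these, 587 were higher in FVB/NJ (3.43%) and 1024 were lower (5.99%). Those 2 shares are the background for counts over gene lists from this comparison with all 3 mice, and no test of lists was run. Counts over lists in other settings, or against single strains, have the backgrounds given below for those settings. The typical called difference was small, with a median size of 0.42, and 90 called genes differed by more than 1. The median difference over all genes was -0.01. In 1536 of the 1611 genes all 3 FVB/NJ mice lay on the called side of the other strains' mean, and in 75 genes 2 mice did. In 82 of the called genes all 3 mice lay beyond every other strain mean. Against the spread of strain means, 0 genes were called by limma (0%), with 646 genes at an unadjusted p under 0.05. A fit in limma with strain as a random block called 11 genes. It used 1 correlation within strains, 0.211, for all probe sets. For genes whose strains differ widely it is therefore more lenient than the test over strain means. FVB/NJ held the highest or lowest strain mean in 900 genes, 19th among the 29 strains. Means of fewer mice vary more, and among strains with 3 mice only A/J (1005) and BUB/BnJ (969) held more.

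The count of called genes rested in part on single mice and on the choice of reference strains. Without mouse 1, 2 or 3 it was 653, 1266 or 980, with 248, 455 or 399 higher and 405, 811 or 581 lower. Against the 4 other strains whose sample labels carry only numbers below 100, as those of FVB/NJ do (18, 21 and 22), it was 212, with 77 higher and 135 lower. Of the 1611 calls 174 were among them, while 26 of the 1611 differences had the opposite sign. Those 4 strains were NOD/ShiLtJ, DBA/2J, BUB/BnJ and SJL/J, and by the median size of the difference over all genes the nearest strains to FVB/NJ were DBA/2J at 0.104, SJL/J at 0.115 and NOD/ShiLtJ at 0.117. BUB/BnJ, at 0.125, was farther than C57BL/6J and NZW/LacJ (both 0.119), BTBR T<+> tf/J (0.12) and NON/ShiLtJ (0.124). The farthest, C57L/J at 0.188, had 1 mouse. The labels do not say what the numbers record, and their part in the results was not tested. Among the 4 strains with low numbers NOD/ShiLtJ and SJL/J were also counted as Swiss-derived. Label number and shared origin can therefore not be told apart in this comparison.

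Of the 4 genes with known FVB/NJ alleles, 2 were called. Complement C5 message (Hc) was at 11.33, 11.24 and 11.18 and was lower by 0.33 (SE 0.05, adjusted p = 1.96e-06). The strains fell on both sides of a gap in Hc, with FVB/NJ among 11 strains between 11.17 and 11.34 and the other 18 between 11.64 and 11.92. A/J, AKR/J, DBA/2J, NOD/ShiLtJ and SWR/J, all of which are known to lack C5, stood on the low side with FVB/NJ. Tyr, which encodes tyrosinase of pigment cells, was at 2.56, 2.55 and 2.65 and was not called (adjusted p = 0.585), near the floor of this array in every strain. Pde6b, a rod photoreceptor gene, was at 2.47, 2.40 and 2.93 and was not called either (adjusted p = 0.252).

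H2-Ea was the gene with the largest deficit. Its signal in the 3 FVB/NJ mice was 3.66, 4.13 and 4.04, while the other strain means ran from 2.80 to 10.80 with a median of 8.42. The difference was -3.28 (SE 0.37, adjusted p = 6.53e-12). No fold is given for genes whose low strains read near the floor of the array. H2-Ea split the strains into 11 with means between 2.80 and 4.98, FVB/NJ included, and 18 between 6.76 and 10.80. C57BL/6J was the lowest of all at 2.80, and SJL/J at 3.14 and NOD/ShiLtJ at 3.84 were also low, so the low level is shared and not a mark of FVB/NJ.

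The 12 genes with the largest excess, and the 12 with the largest deficit, were picked by size after the values were seen, because the rule that asked for a call by both tests named none.

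Slco1a1, which encodes an uptake transporter for bile acids and other organic anions, was at 10.18, 9.70 and 9.86. Its median over the other strains was 3.79, and FVB/NJ was 4.71 higher (SE 0.43, adjusted p = 1.29e-16). The strains again formed separate sets, with 10 between 7.33 and 10.49 and 19 between 2.95 and 4.77. SWR/J (10.49) was above FVB/NJ, while SJL/J (2.95) was the lowest strain. The second probe set of the gene was also higher, by 4.15.

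Gstp3, a pi-class glutathione S-transferase, was at 11.58, 11.48 and 11.39 and was the highest of all strains. It was 3.33 higher than the mean of the others (SE 0.15, adjusted p = 2.47e-41), or 10-fold (95% confidence interval 8.15 to 12.3). Only 3 other strains, NON/ShiLtJ, SJL/J and KK/HlJ, lay on its side of a gap from 9 to 11.04. Every FVB/NJ mouse exceeded the brightest of the 62 other mice, at 11.30.

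Gdpd3, a lysophospholipase D, was at 8.57, 8.68 and 8.66. It was 3.19 higher (SE 0.12, adjusted p = 2.17e-48). FVB/NJ belonged to a set of 10 strains between 8.08 and 9.40, with the other 19 between 3.51 and 4.19, and neither SWR/J nor SJL/J nor C57BL/6J was in that set.

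Sult3a1, a sulfotransferase, was at 8.79, 7.24 and 6.77, which put it 3.20 above the others (SE 0.57, adjusted p = 2.97e-05). Sult1e1, the estrogen sulfotransferase, was at 6.97, 6.72 and 5.63 and was 2.12 higher (SE 0.52, adjusted p = 0.00383). Both were highest in mouse 1, and both ranked 4 of 29 strains. Without mouse 1, Sult1e1 was 1.85 higher and no longer called (adjusted p = 0.0897).

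Pnpla3, which encodes a lipid droplet acylhydrolase whose human counterpart is tied to fatty liver, was at 6.01, 9.04 and 8.22. It was 2.71 higher (SE 0.50, adjusted p = 6.18e-05) and the highest of all strains on average. Mouse 1 lay within the range of the other strain means, 3.44 to 7.31, and the other 2 mice lay above it. Slc2a4, the insulin-responsive glucose transporter GLUT4 of muscle and fat, was at 5.21, 5.75 and 5.66 against 3.13 to 4.84. All 3 mice were above every other strain mean. The excess of 1.70 (SE 0.21, adjusted p = 4.3e-10) remained called with strain as a random block (adjusted p = 0.00519) but was not over strain means (adjusted p = 0.997).

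Serpina12, the serine protease inhibitor vaspin, was at 11, 10.47 and 10.65 and was 1.54 higher (adjusted p = 1.03e-08). Cyp2c39, a cytochrome P450, was at 10.46, 10.30 and 10.23 and was 1.74 higher (adjusted p = 5.18e-08). FVB/NJ was 1 of 22 strains between 8.36 and 10.86 for Cyp2c39, and the other 7 strains lay between 4.43 and 5.63, C57BL/6J at 5.31 among them. Cux2, a transcription factor more abundant in female liver, was at 7.91, 6.23 and 5.35 and was 1.69 higher (adjusted p = 0.0185). It spread over more than 2 units within the strain, and without mouse 1 it was 0.98 higher and not called (adjusted p = 0.448). Slc15a2, a peptide transporter, was 1.71 higher (adjusted p = 0.0285), but its other 2 probe sets were not called. The call of Slc15a2 was lost without any one of the 3 mice (adjusted p = 0.0716 to 0.156), as was that of Acot3, an acyl-CoA thioesterase that was 1.52 higher with all mice (adjusted p = 0.0399) and had an adjusted p of 0.0886 to 0.253 without one.

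**Figure D1:**
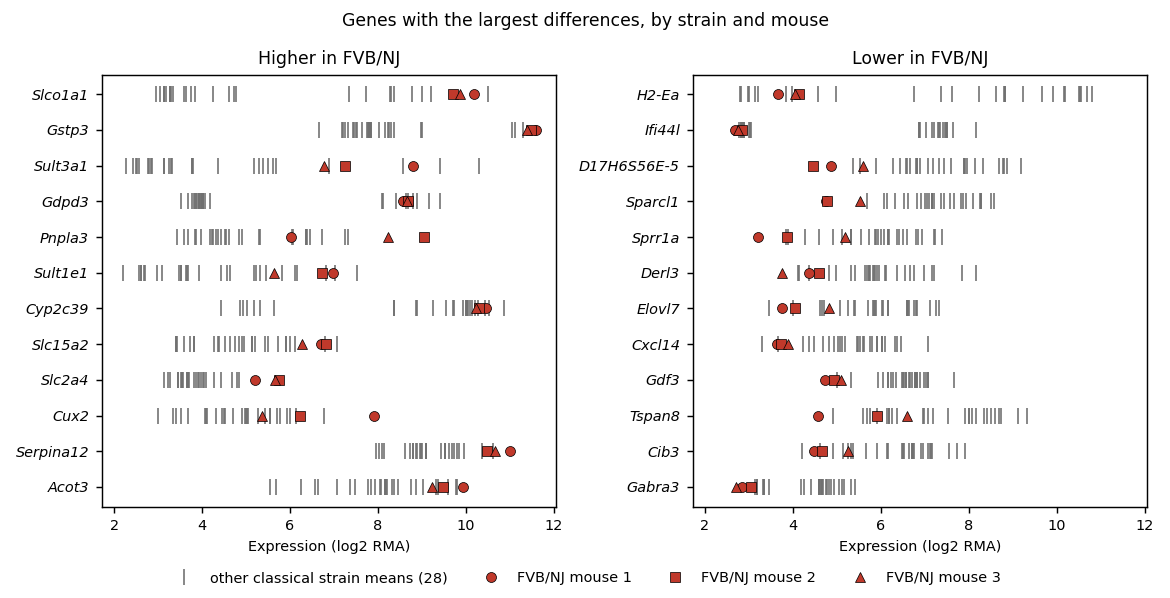
Expression (log2 RMA, horizontal axis) of the 12 genes with the largest called excess (left) and the 12 with the largest called deficit (right) in FVB/NJ; grey ticks are the 28 other strain means and red symbols the 3 FVB/NJ mice. For Slco1a1, Gdpd3, H2-Ea and Ifi44l the grey ticks form separate sets and FVB/NJ lies in 1 of them, whereas for Slc2a4 the 3 mice, at 5.21 to 5.75, lie above all other strain means.

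Among the deficits after H2-Ea, Ifi44l and Sparcl1 were the clearest. Ifi44l, an interferon-induced gene, was at 2.68, 2.83 and 2.75, close to the floor. It differed from the mean of the others by -2.67 (SE 0.16, adjusted p = 2.15e-31). FVB/NJ shared this level with 12 other strains, since 13 means lay between 2.75 and 3.05 and 16 between 6.86 and 8.17.

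Sparcl1, a secreted matrix protein of the SPARC family, was at 4.76, 4.77 and 5.53, and the other strain means ran from 5.69 to 8.58. FVB/NJ was the lowest strain, with a difference of -2.29 (SE 0.23, adjusted p = 2.1e-14). It was also lower than in SWR/J (-1.81), SJL/J (-1.13) and C57BL/6J (-1.88) taken singly, with adjusted p of 0.000199, 0.0387 and 0.00015.

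Gabra3, a subunit of the GABA-A receptor, was at 2.85, 3.05 and 2.71 and differed by -1.52 (adjusted p = 3.75e-11). It was the lowest of a set of 8 strains between 2.87 and 3.45, which held SWR/J and SJL/J too, with 21 strains between 4.18 and 5.40. D17H6S56E-5 was at 4.87, 4.46 and 5.59 and differed by -2.37 (adjusted p = 3.19e-07). FVB/NJ was the lowest strain for this gene, and its highest mouse lay above the lowest other strain mean, NOD/ShiLtJ at 5.36.

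The remaining deficits of this size were in Sprr1a (-1.80), Derl3 (-1.74), Elovl7 (-1.67), Cxcl14 (-1.62), Gdf3 (-1.62), Tspan8 (-1.61) and Cib3 (-1.54). Derl3 encodes a protein of endoplasmic reticulum degradation, Elovl7 a fatty acid elongase, Cxcl14 a chemokine and Gdf3 a ligand of the TGF-beta family. Gdf3 was the lowest of all strains, at 4.72, 4.93 and 5.09 (adjusted p = 9.56e-08). Mouse 1 had the lowest Sprr1a (3.21, against 3.87 and 5.19) and Tspan8 (4.57, against 5.91 and 6.60), and without it the differences were -1.36 and -1.05 and neither was called (adjusted p = 0.148 and 0.368). Tspan8 was also lost without mouse 2 (-1.72, adjusted p = 0.0501), and Elovl7 without mouse 1 (-1.45, adjusted p = 0.0531).

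A separate set of genes put the whole FVB/NJ group outside the other strains. In 8 of 17097 genes (0.0468%) all 3 FVB/NJ mice lay outside the range of the 62 other classical mice. In 2 of them, Gstp3 and Cerox1, FVB/NJ was higher, and in 6 of them it was lower. These genes were found by their values, so their separation is a description.

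Ncoa7, a nuclear receptor coactivator, was at 4.61, 4.85 and 4.95, below the lowest of the other mice at 5.05, with a difference of -1.27 (SE 0.15, adjusted p = 1.19e-10). Gata6, a zinc finger transcription factor, was at 5.51, 6.01 and 5.94 and differed by -0.64 (adjusted p = 8.07e-06). Apon, which encodes apolipoprotein N, was held within a narrow band of 10.54, 10.55 and 10.52, below the lowest other mouse at 10.61, with a difference of -0.48 (adjusted p = 4.14e-08). Fkbp7, a prolyl isomerase of the endoplasmic reticulum, Cela1, an elastase, and Srpx2, a secreted sushi-repeat protein, differed by -0.80, -0.71 and -0.70. Cerox1, a long noncoding RNA, was near the floor at 3.26, 3.19 and 3.20, was higher by 0.26 (adjusted p = 0.0177), and lost its call without any one of the mice (adjusted p = 0.056 to 0.149).

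The 11 genes called with strain as a random block shared Gstp3 and Ncoa7 with the 8 genes above, of which the other 6 were not called in that fit (adjusted p = 0.0904 to 0.448). The 11 were Psmc3ip, Slc2a4 and Gstp3, which were higher, and Nop16, Ncoa7, Itga4, Rad1, Rcn2, H2-Eb1, Ctsl and Capzb, which were lower. None of the 11 was called over strain means. Psmc3ip, a factor of homologous recombination, was at 4.86, 4.91 and 5.04 and was 1.30 higher (SE 0.10). Its strain means ran from 3.29 to 5.04, and NOD/ShiLtJ alone was as high as FVB/NJ. Itga4, the integrin alpha 4 chain of leukocytes, was at 4.88, 5.13 and 4.85 and differed by -1.5 (SE 0.15), with every mouse below the lowest other strain mean of 5.40. This is the brightest of 5 probe sets of Itga4, and they disagreed: a dimmer one was called lower too (-0.61, adjusted p = 0.00161), another was called higher (0.38, adjusted p = 0.0313) and the other 2 were not called. Ctsl, the lysosomal protease cathepsin L, was an abundant message at 11.64, 11.77 and 11.83, below other strain means of 12.01 to 12.42. The size of the Ctsl difference was modest, -0.46 (SE 0.05), but no other strain mean reached down to the FVB/NJ mice. Rad1, a checkpoint protein, and Rcn2, a calcium-binding protein of the endoplasmic reticulum, differed by -1.07 and -0.98.

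Single probe sets told a different story from their gene in some cases. One probe set for Ildr2, an immunoglobulin-domain receptor, was the only probe set called over strain means. It read 6.88, 6.09 and 6.38 in the FVB/NJ mice, and the other 28 strain means lay between 3.31 and 4.47. The difference was 2.57 (SE 0.17, adjusted p = 4.37e-27), and over strain means the adjusted p in limma was 1.93e-05. The brighter probe set that stood for Ildr2 read 8.54, 8.78 and 8.08, inside the other strains' 7.73 to 9.61, and was not called (adjusted p = 0.18). A further probe set of Ildr2 was not called either (adjusted p = 0.319).

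Hsd17b13, a dehydrogenase of hepatocyte lipid droplets, had a pair of probe sets that moved in opposite directions. The brighter read 11.05, 11.27 and 11.20 and was lower by 0.60 (adjusted p = 1.05e-07), while the dimmer read 7.76, 8.01 and 7.79 and was higher by 3.84 (adjusted p = 1.76e-38). For both probe sets FVB/NJ stood with 5 other strains, NON/ShiLtJ, CBA/J, BUB/BnJ, SJL/J and C3H/HeJ, on 1 side of a gap. On the dimmer probe set those 6 strains lay between 7.45 and 7.99 and the other 23 between 2.82 and 3.62, and on the brighter the same 6 lay between 11.03 and 11.35 and the rest between 11.66 and 12.09. No direction is therefore given for Hsd17b13. In all, 13 genes had probe sets called in opposite directions, of 7180 genes with 2 or more probe sets.

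**Figure D2:**
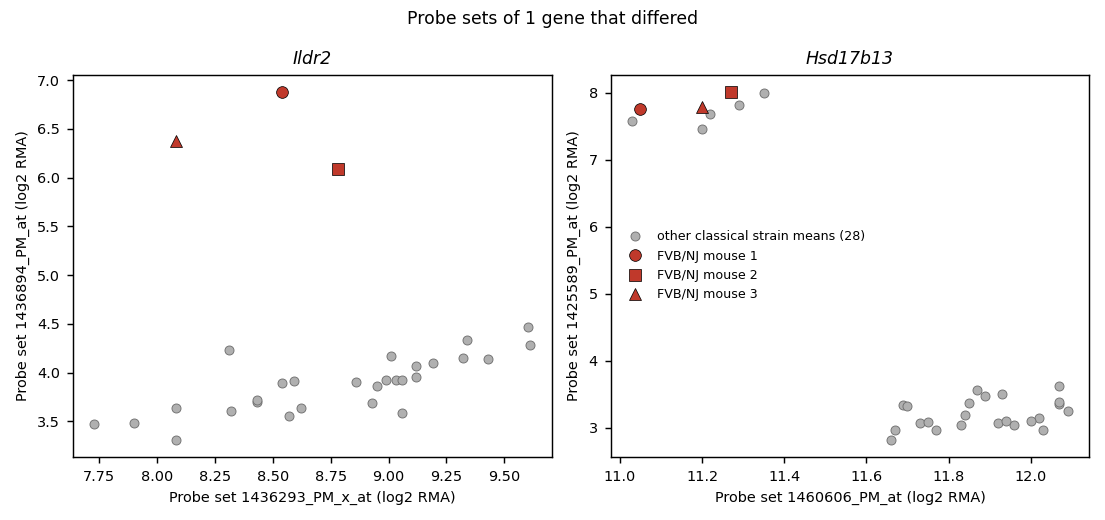
The 2 probe sets of Ildr2 (left) and of Hsd17b13 (right) against each other, both axes in log2 RMA; grey points are the 28 other strain means and red symbols the 3 FVB/NJ mice. In Ildr2 the FVB/NJ mice stand above all strains on 1 probe set, at 6.09 to 6.88, and among them on the other, and in Hsd17b13 they stand in a set of 6 strains that is high on 1 probe set and low on the other.

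MHC class II genes were low in FVB/NJ as a group. These genes encode the surface molecules that present peptides to helper T cells, made mainly by macrophages, dendritic cells and B cells, and the transactivator Ciita switches them on through a shared promoter module whose Y-box reads ATTGG. Of 12 measured members, 8 were called lower and 0 higher, against 5.99% of all genes lower, and all 12 lay below the mean of the other strains. Their median difference was -0.62, beside -0.01 over all genes, and the mean of the list was the lowest of the 29 strains. H2-Ea (-3.28), described above and low in other strains too, was 1 of the 8 and lowers that mean.

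H2-Eb1, the E-beta chain, was at 9.37, 8.83 and 9.48 against other strain means of 9.36 to 11.08. It differed by -1.33 (SE 0.16, adjusted p = 4.52e-10) and remained called with strain as a random block (adjusted p = 0.0187) but not over strain means (adjusted p = 0.997). SWR/J, at the low end of that range, did not differ from FVB/NJ beyond the spread of mice (-0.14, adjusted p = 0.863), while SJL/J (-1.35) and C57BL/6J (-1.25) stood above it, with adjusted p of 1.53e-05 and 0.000595. H2-Aa, the A-alpha chain, was at 10.67, 10.18 and 10.26 and differed by -0.72 (SE 0.12, adjusted p = 1.03e-05). Cd74, the invariant chain, was at 9.12, 8.64 and 8.78 and differed by -0.58 (adjusted p = 0.00949). H2-DMa and H2-DMb2, subunits of the peptide loader H2-DM, differed by -0.65 and -0.67, and H2-Ab1, the A-beta chain, by -0.45 (adjusted p = 0.0494). Ciita itself was at 4.13, 3.45 and 3.36 and differed by -0.74 (adjusted p = 0.0385), a call lost without mouse 2 or 3 (adjusted p = 0.183 and 0.271).

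Mouse 1 was the least affected, with a mean deviation over the list of -0.58, against -0.94 and -0.84 in mice 2 and 3. Leaving out mouse 1, 2 or 3 left 9, 3 or 4 members called lower, and against the 4 strains with label numbers below 100 it was 3 members, with a median of -0.40. In the contrasts with single strains 0 members were called lower against SWR/J, 2 against SJL/J and 2 against C57BL/6J, with list medians of -0.12, -0.47 and -0.38.

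The reference promoters of H2-Eb1 and H2-Aa are shown because, of the 4 called class II genes with a promoter window, they had the largest differences. The sequence is that of the C57BL/6J reference genome from RefSeq (GRCm38.p6), from 250 bases before to 50 bases after the start of the gene, 5′ to 3′ on the coding strand, and not that of FVB/NJ. Capitals mark ATTGG on either strand. H2-Eb1 (chr17:34305617-34305916, plus strand) holds it 2 times and H2-Aa (chr17:34287774-34288073, minus strand) 1 time.
H2-Eb1: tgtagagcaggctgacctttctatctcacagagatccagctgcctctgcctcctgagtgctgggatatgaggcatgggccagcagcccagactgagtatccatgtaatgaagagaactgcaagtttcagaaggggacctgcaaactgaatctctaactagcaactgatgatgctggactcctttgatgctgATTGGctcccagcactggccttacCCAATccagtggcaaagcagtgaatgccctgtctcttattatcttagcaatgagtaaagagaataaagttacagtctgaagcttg
H2-Aa: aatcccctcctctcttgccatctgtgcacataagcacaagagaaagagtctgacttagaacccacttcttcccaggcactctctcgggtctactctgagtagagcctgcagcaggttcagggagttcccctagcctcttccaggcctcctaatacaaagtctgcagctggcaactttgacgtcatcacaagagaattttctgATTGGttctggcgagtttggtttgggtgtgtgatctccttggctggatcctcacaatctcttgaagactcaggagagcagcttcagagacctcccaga

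ATTGG was searched on both strands in these 300-base windows. Of the 12 members, 8 had a window and all 8 held the letters, among them the called genes H2-Aa, H2-Eb1, H2-DMa and H2-DMb2. Over all 13605 measured genes with a window, 42.3% held them, so the match is common.

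Other immune genes were lower in smaller numbers. Of 14 measured MHC class I genes 4 were called lower (28.6%, beside 5.99% of all genes) and 1 higher (7.14%, beside 3.43%). H2-T23, which encodes the Qa-1 molecule recognised by NK cells, was at 10.78, 10.73 and 10.96 and differed by -0.52 (adjusted p = 4.62e-08), H2-T24 differed by -0.94, H2-T10 by -0.39 and Tapbp, the loading factor tapasin, by -0.28. Class I genes called lower numbered 3, 3 or 2 without mouse 1, 2 or 3. H2-K1, a classical class I heavy chain, was higher by 0.19 (adjusted p = 0.0017). Of 29 interferon response genes 5 were called lower (17.2%, beside 5.99% of all genes) and 0 higher, with a list median of -0.28. Besides Ifi44l these were Eif2ak2, the double-stranded RNA sensor PKR, at 4.33, 3.88 and 3.53 (-0.96, adjusted p = 1.96e-06), Cmpk2 (-0.74), Oasl1 (-0.55) and Ifih1 (-0.34). Without mouse 1, 2 or 3 the interferon count was 2, 3 or 5, with Cmpk2 and Oasl1 lost without mouse 1 or 2, and against SWR/J 9 members were called higher and 1 lower. Of 6 Ifi200 family genes, which sit in a cluster of DNA sensors, 3 were called lower (50%, beside 5.99% of all genes), Ifi205 (-0.67), Ifi209 (-0.63) and Ifi203 (-0.51). The call of Ifi209 was lost without mouse 1 or 3, those of Ifi203 and Tapbp without any one mouse, and that of H2-T10 without mouse 3.

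Genes of fat synthesis were high in FVB/NJ, most of all in mice 2 and 3. The liver makes fatty acids from carbohydrate through a set of enzymes that the transcription factors SREBP-1c and ChREBP switch on together after a meal. Of 18 measured members 8 were called higher and 0 lower, against 3.43% of all genes higher, and all 18 lay above the mean of the other strains. The list median was 0.75, and the list mean was second highest of the 29 strains.

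Thrsp, the lipogenic Spot 14 protein, was at 10.84, 11.78 and 11.95 and was 1.51 higher (SE 0.37, adjusted p = 0.00414). Elovl6, the elongase of palmitate, was at 9.30, 10.96 and 11.38 and was 1.25 higher (SE 0.33, adjusted p = 0.00878). Fasn, fatty acid synthase, was at 10.17, 11.80 and 11.49 and was 1.15 higher (SE 0.30, adjusted p = 0.0071). In each of the 3 genes mouse 1 lay within the range of the other strain means and mice 2 and 3 lay above it. Acaca, acetyl-CoA carboxylase, was at 9.06, 9.91 and 10.15 and was 0.95 higher (SE 0.21, adjusted p = 0.00142), the highest mean of all strains. Pklr, the liver pyruvate kinase, was 0.84 higher and Me1, malic enzyme, 0.75 higher (adjusted p = 0.00691 and 0.0446). Dgat2, which completes triglyceride, was nearly even over the 3 mice at 11.20, 11 and 11.24 and was 0.31 higher (adjusted p = 0.00379). Acly, ATP citrate lyase, was at 9.68, 11.57 and 11.52 and was not called (difference 0.74, adjusted p = 0.0888). Scd1, stearoyl-CoA desaturase, was near the top of the array scale in every strain and was not called (13.15, 13.31 and 13.29, difference 0.08).

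The mean deviation over the list was 0.23 in mouse 1 and 1.03 in both mouse 2 and mouse 3. Calls numbered 10, 4 or 1 without mouse 1, 2 or 3. Fasn was not called without mouse 2 or 3 (adjusted p = 0.168 and 0.105), nor was Elovl6 (adjusted p = 0.108 and 0.262), and Thrsp was not called without mouse 3 (adjusted p = 0.0803). Against the 4 strains with label numbers below 100 it was 0 members, with a median of 0.26. SWR/J, SJL/J and C57BL/6J were themselves among the high strains, with 0, 1 and 0 members called against each and list medians of 0.17, 0.07 and -0.06.

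Of 19 measured cholesterol synthesis genes 4 were called higher (21.1%, beside 3.43% of all genes) and 0 lower, with a list median of 0.32. FVB/NJ ranked 9 of 29 for the list mean, which was 7.58 in FVB/NJ and 6.35 to 7.91 in the others, and the mean deviations were -0.03, 0.60 and 0.51 in mice 1, 2 and 3. Insig1, which holds the SREBP escort protein in the endoplasmic reticulum, was at 8.78, 10.07 and 9.13 and was 0.94 higher (adjusted p = 0.00601). Stard4, a sterol carrier, was at 8.69, 8.92 and 8.81 and was 0.91 higher (adjusted p = 0.000781). Dhcr7 and Fdft1, enzymes of the pathway, were 0.75 and 0.39 higher with all mice, and both calls were lost without any one mouse. Insig1 was not called without mouse 2 (0.57, adjusted p = 0.249). Without mouse 1, 2 or 3, 2, 1 or 2 members of the list were called.

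Of 16 lipid droplet genes 0 were called higher or lower. Of 23 genes of fatty acid oxidation 2 were higher, Acot3 and Ppara (8.7%, beside 3.43% of all genes). Called lower was 1 (4.35%, beside 5.99%), Fgf21, a hepatokine of fasting, by -1.07 (adjusted p = 0.0128). The calls of Ppara and Fgf21 were lost without mouse 1 or 2. Over 27 apolipoprotein and lipoprotein genes the list median was 0.01. Called higher were 3 (11.1%, beside 3.43% of all genes) and called lower 3 (11.1%, beside 5.99%). Among these, Abcg5, a subunit of the sterol exporter of the canalicular membrane, was at 11.23, 10.91 and 10.94, the highest mean of all strains (0.60, adjusted p = 0.0054), and Apobec1, the editing enzyme of Apob message, was at 8.21, 8.57 and 8.55 (-0.74, adjusted p = 2.2e-07). Abcg5 was not called without mouse 1 (adjusted p = 0.13). Of 24 bile acid genes 3 were higher (12.5%, beside 3.43% of all genes). They were Slco1a1, Slc27a5, which activates bile acids, by 0.36, and Nr0b2, the repressor SHP, by 0.52. Of 8 adipocyte genes 1, Lpl, was lower (-0.46), 12.5% beside 5.99% of all genes. Lpl and Slc27a5 were not called without mouse 1, nor Nr0b2 without mouse 1 or 2.

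**Figure D3:**
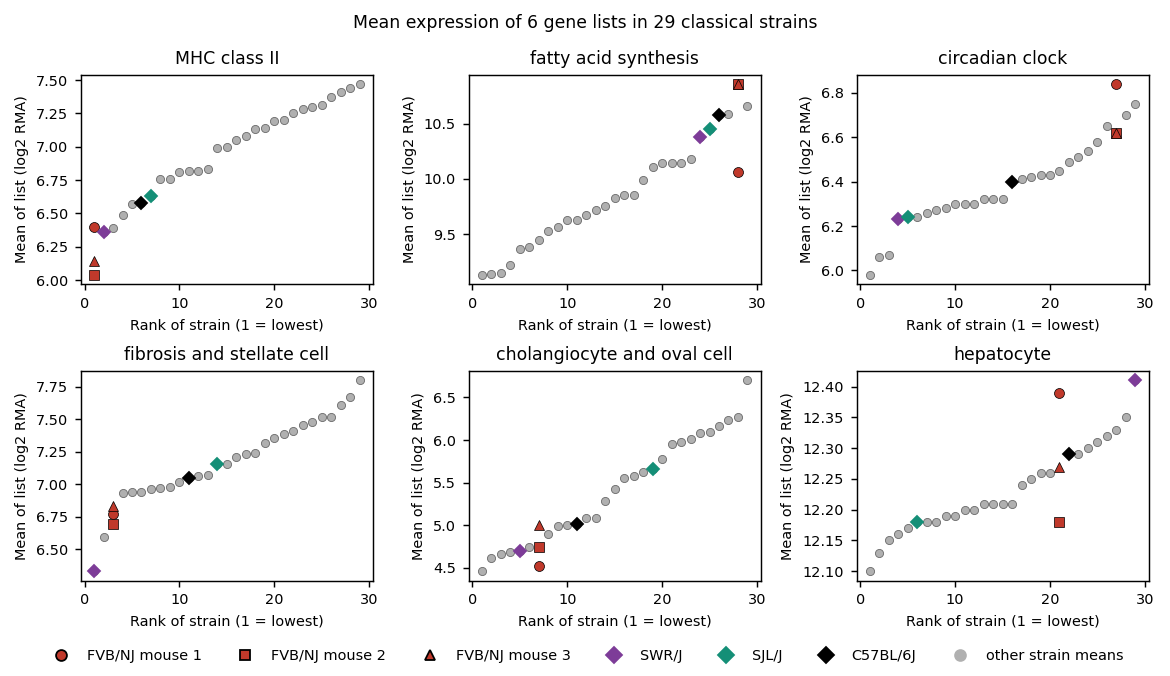
Mean expression (log2 RMA, vertical axis) of 6 gene lists against the rank of the strain (1 is the lowest of 29); red symbols are the 3 FVB/NJ mice drawn at the rank of their mean, diamonds are SWR/J, SJL/J and C57BL/6J, and grey points the other strain means. FVB/NJ is lowest for MHC class II and second highest for fatty acid synthesis, where mouse 1 stands well below the other 2, and SWR/J is the lowest strain for fibrosis and stellate cell genes.

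Drug-metabolising and sex-biased genes were higher than the mean of the other strains in several members. Of 31 Cyp2 and Cyp3 cytochromes P450, 7 were called higher (22.6%, beside 3.43% of all genes) and 1 lower (3.23%, beside 5.99%). The list median was 0.28. Cyp2d22 was the highest of all strains at 9.97, 9.68 and 9.63 (0.63, adjusted p = 7.74e-08), and Cyp2b13 was at 10.04, 9.76 and 10.12 (1.16, adjusted p = 0.0298). The call of Cyp2b13 was lost without any one mouse (adjusted p = 0.0645 to 0.157). Members of the P450 list called higher numbered 3, 2 or 4 without mouse 1, 2 or 3. Against SWR/J 0 P450s were called higher and 3 lower, with a list median of -0.23. Against SJL/J and C57BL/6J 4 and 1 were called higher and 0 lower, with list medians of 0.32 and 0.06. Of 12 sulfotransferases 3 were higher (25%, beside 3.43% of all genes) and 0 lower. The 3 were Sult3a1, Sult1e1 and Sult1c2, the last lost without mouse 1 or 3. Against SWR/J 0 sulfotransferases were called higher and 3 lower, with a list median of -0.38. Against SJL/J and C57BL/6J 1 and 0 were called higher and 0 lower, with list medians of 0.14 and -0.13. Of 32 glutathione and NRF2 genes 3 transferases were higher (9.38%, beside 3.43% of all genes), Gstk1 (0.55), Gstt2 (0.41) and Gstt1 (0.38). The list median was -0.09, and against SWR/J 8 members were called higher and 0 lower. Gstt2 was lost without mouse 3. Gstp3 was not on that list.

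Of 24 genes that differ between male and female liver 6 were called higher (25%, beside 3.43% of all genes) and 0 lower. The list median was 0.47. All the mice were female. Slco1a1, usually more abundant in males, was among the 6 together with Sult3a1, Cux2, Cyp2b13 and Acot3, usually more abundant in females, so the members called did not follow 1 sex. Sult1e1 was the sixth. The mean deviations were 0.99, 0.69 and 0.40 in mice 1, 2 and 3, and without each of them 2, 4 or 5 members were called higher. FVB/NJ ranked 3 of 29 for the list mean, at 7.33, below SWR/J (7.91) and NOD/ShiLtJ (7.52). Against SWR/J 0 members were called higher and 4 lower, with a list median of -0.27. Against SJL/J and C57BL/6J 2 and 1 were called higher and 0 lower, with list medians of 0.28 and 0.1. Of 16 steroid hormone genes 1 was higher (Hsd11b1) and 1 lower (the brighter probe set of Hsd17b13), 6.25% each beside 3.43% and 5.99% of all genes. Hsd11b1 was lost without mouse 2 or 3.

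Circadian genes differed in a pattern of opposite arms. The clock is a loop in which Arntl and Clock switch on the Per, Cry and Nr1d genes and the D-box factor Dbp, and levels in liver swing over the day. Of 20 measured members 8 were called higher (40%, beside 3.43% of all genes) and 2 lower (10%, beside 5.99%). The list median was 0.37, and the 2 lower were Arntl and Clock.

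Per3 was at 7.97, 6.88 and 7.51 and was 1.5 higher (SE 0.38, adjusted p = 0.00568). Dbp was at 8.67, 8.00 and 8.56 and was 1.48 higher (SE 0.48, adjusted p = 0.0393). Arntl was at 3.47, 5.07 and 4.61 and differed by -1.07 (SE 0.31, adjusted p = 0.0208). Mouse 1 was the highest of the 3 for Per3 and Dbp and the lowest for Arntl. Per2 was at 6.22, 5.74 and 5.48 (0.82, adjusted p = 0.0243), Wee1, a cell cycle kinase under clock control, at 7.47, 6.86 and 7.69 (0.63, adjusted p = 0.0126), and Clock at 6.66, 7.23 and 6.96 (-0.36, adjusted p = 0.0231). Hlf, Cry2, Nr1d2 and Bhlhe40 were higher by 0.53, 0.44, 0.39 and 0.36.

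Without mouse 1, 0 members were called in either direction, and without mouse 2 or 3, 7 or 5 were called higher. Per3 and Arntl without mouse 1 differed by 1.24 and -0.62 (adjusted p = 0.133 and 0.467), Arntl was also lost without mouse 3 (adjusted p = 0.0537), Per2 without mouse 1 or 2 (adjusted p = 0.303 and 0.0699), and Dbp without any one mouse (adjusted p = 0.0648 to 0.225). Against the strains with label numbers below 100 it was 0. SWR/J differed most, with 5 members higher and 4 lower in FVB/NJ. Per3 was at 4.61 and 4.51 in the SWR/J mice and Arntl at 6.95 and 7.04, outside the FVB/NJ values on both sides. Against SJL/J and C57BL/6J 0 members were called. Per the study's methods the mice were fasted from the start of the light phase before the blood draw at euthanasia. The labels give no hour for a mouse, and the part of the hour in these values was not tested.

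The Per3 promoter is shown because it was the only called clock gene whose window held a D-box, the site of Dbp and its relatives Tef and Hlf. Capitals mark TTATGNAA on either strand, which the window (chr4:151044616-151044915, minus strand, GRCm38.p6, RefSeq reference sequence) holds 2 times. Of 7 called clock genes with a window 1 held it, and of 17 list members with a window 3 did, beside 2.86% of all genes with a window.
Per3: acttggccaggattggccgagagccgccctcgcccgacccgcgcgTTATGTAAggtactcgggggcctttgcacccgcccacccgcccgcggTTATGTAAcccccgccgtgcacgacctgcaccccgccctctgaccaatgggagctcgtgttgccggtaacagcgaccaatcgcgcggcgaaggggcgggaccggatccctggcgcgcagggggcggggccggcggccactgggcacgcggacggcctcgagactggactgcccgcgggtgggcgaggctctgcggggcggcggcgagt

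The E-box CACGTG, the site of Clock and Arntl, was in 0 of 7 called clock genes with a window. It was in 5 of 17 list members with a window and in 10.2% of all genes with a window. For the fatty acid synthesis list it was in 0 of 7 called and 3 of 15 in all, and a core of the sterol element, TCACNCCAC, was in 0 of 7 called and 1 of 15 in all, beside 1.5% of all genes.

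**Figure D4:**
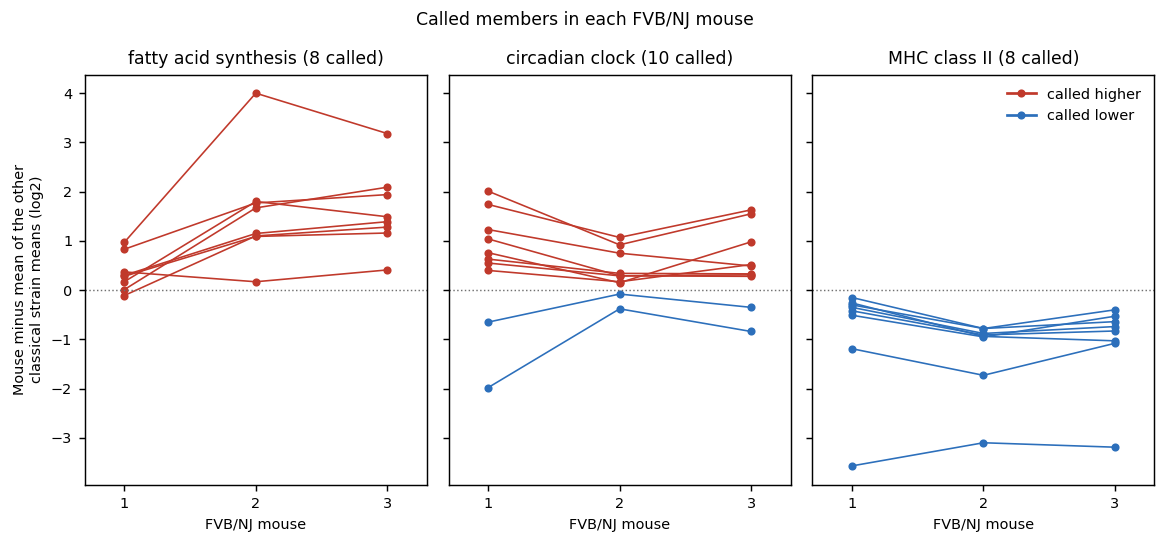
Difference of each FVB/NJ mouse from the mean of the other 28 strain means (log2, vertical axis) for the called members of 3 gene lists; a line joins the values of 1 gene, and the order of the mice has no meaning. Mouse 1 is the nearest to zero for most fatty acid synthesis and MHC class II genes and the farthest for most clock genes, such as Arntl.

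Of 18 immediate early genes 6 were called lower (33.3%, beside 5.99% of all genes) and 0 higher, with a list median of -0.43. Ier3 was at 5.30, 5.25 and 5.16 (-0.94, adjusted p = 0.00523), Fos at 5.87, 5.90 and 5.96 (-0.64, adjusted p = 0.0155) and Jun at 7.01, 7.16 and 7.30 (-0.59, adjusted p = 0.0246). The 3 mice lay close together, yet without mouse 1, 2 or 3 the count fell to 1, 2 or 1, and Fos was lost in all 3 cases (adjusted p = 0.0636 to 0.112). Against SWR/J 3 members were called higher and 0 lower, with a list median of 0.35. Members called lower against SJL/J and C57BL/6J numbered 1 and 0, with list medians of -0.41 and -0.23. Of 23 genes of the unfolded protein response 4 were lower (17.4%, beside 5.99% of all genes) and 0 higher. Among the 4 were Trib3 (-0.95) and Sdf2l1 (-0.68). Without mouse 1, 2 or 3 the count was 0, 7 or 0, and Trib3 and Sdf2l1 were lost without mouse 1 or 3. Of 12 heat shock genes 2 were higher (16.7%, beside 3.43% of all genes), Bag3 (0.33) and Ahsa1 (0.25), and 0 lower. Without mouse 1, 2 or 3 the count of higher heat shock genes was 1, 0 or 1.

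Marker genes of other liver cells were lower in FVB/NJ for several cell types. In whole liver, fewer cells of a type and less RNA per cell cannot be told apart. Of 31 fibrosis and stellate cell genes 11 were called lower and 0 higher (35.5% lower, beside 5.99% of all genes), with a list median of -0.37 and mean deviations of -0.42, -0.50 and -0.37 in the 3 mice. Col1a1, the main chain of type I collagen, was at 4.67, 4.83 and 4.77 against 4.05 to 6.81 (-0.95, adjusted p = 0.0106). Col6a3 was at 7.70, 7.70 and 8.14 (-0.93, adjusted p = 0.00222), Loxl1, a collagen cross-linking oxidase, at 5.29, 4.75 and 4.47 (-0.96, adjusted p = 0.0075), and Mmp13, a collagenase, at 4.37, 3.55 and 3.48 (-1.08, adjusted p = 0.0482). FVB/NJ was 27th of 29 for the mean of the list, and SWR/J was lower still. Col1a1 was not called without mouse 1 or 3, Col6a3 not without mouse 1, Loxl1 not without mouse 2 or 3, and Mmp13 not without any one mouse. Without mouse 1, 2 or 3 the count was 2, 4 or 5, and against the strains with label numbers below 100 it was 0.

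Of 35 macrophage and Kupffer cell genes 7 were called lower (20%, beside 5.99% of all genes) and 1 higher (2.86%, beside 3.43%), with a median of -0.33. Ccr2, the receptor that brings monocytes into tissue, was at 4.84, 4.65 and 4.78 (-1.03, adjusted p = 3.82e-06), Cx3cr1 at 5.73, 5.70 and 5.80 (-1.08, adjusted p = 0.000804) and Cd14, a receptor for endotoxin, at 7.73, 7.75 and 8.16 (-1.02, adjusted p = 0.00967). The 1 higher gene was Clec4f, a lectin restricted to resident Kupffer cells, at 10.01, 9.68 and 9.16 (1.11, adjusted p = 0.01), and its call was lost without mouse 1 or 2 (adjusted p = 0.173 and 0.059), as was that of Cd14 (adjusted p = 0.108 and 0.068). Adgre1, a macrophage adhesion receptor, was at 7.78, 7.78 and 7.73 (-0.43, adjusted p = 0.0465). The mean of the list was 7.81 in FVB/NJ and 7.39 to 8.53 in the others. Without mouse 1, 2 or 3, 3, 4 or 5 genes were called lower, and with 65 classical mice alone in the fit it was 14. Against SWR/J 6 members were called higher and 0 lower, with a list median of 0.34. Against SJL/J 1 was called lower and against C57BL/6J 1 higher, with list medians of -0.2 and -0.12.

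Of 13 B cell and plasma cell genes, with a list median of -0.03, 6 lay above the mean of the other strains and 7 below. Called lower were 3 (23.1%, beside 5.99% of all genes), Cd72 (4.42, 4.55 and 4.26, difference -1.49, adjusted p = 1.49e-08), Jchain (-1.34) and Tnfrsf13b (-0.40), the last 2 lost without any one mouse. The mean of the B cell list was 4.11 in FVB/NJ and 4.11 to 4.63 in the others. The part of macrophages and B cells in the lower MHC class II values was not tested. Of 22 T and NK cell genes 0 were called, and of 14 neutrophil genes 1 was lower (7.14%, beside 5.99% of all genes), Csf3r (-0.63).

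Of 17 cholangiocyte and oval cell genes 5 were called lower (29.4%, beside 5.99% of all genes) and 0 higher, with a median of -0.68. FVB/NJ was 23rd of 29 for the list mean, at 4.75 against 4.46 to 6.7 in the others. Sox9, a transcription factor of bile duct cells, was at 3.70, 3.98 and 3.70 and was the lowest of all strains (-1, adjusted p = 0.00164). Epcam, a surface protein of ductal and progenitor cells, was at 4.88, 5.75 and 5.90 (-1.14, adjusted p = 0.0328), and Pkhd1, the fibrocystin of biliary cilia, at 5.08, 6.01 and 5.88 (-0.93, adjusted p = 0.0079). Mouse 1 was lowest for both, and without it neither was called (adjusted p = 0.36 and 0.267). Epcam was also lost without mouse 2 or 3 (adjusted p = 0.0649 and 0.0559). The mean deviations of the list were -0.92, -0.70 and -0.44 in the 3 mice, and without each of them 1, 2 or 3 members were called. Against SWR/J, SJL/J and C57BL/6J 0, 3 and 0 members were called lower, with list medians of 0.01, -0.83 and -0.27.

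Of 34 cell cycle genes 4 were called lower and 0 higher, 11.8% beside 5.99% of all genes lower. Ube2c, a ubiquitin carrier of mitotic exit, was at 4.08, 3.40 and 4.14 (-1.46, adjusted p = 0.00677) and lost its call without mouse 2 (adjusted p = 0.0942). Cdkn1a, the inhibitor p21, was at 5.55, 6.40 and 6.44 (-1, adjusted p = 0.0127) and lost its call without mouse 1 (adjusted p = 0.288). Of 22 endothelial genes 2 were higher (9.09%, beside 3.43% of all genes), Clec4g (0.66) and Dnase1l3 (0.56). Of 11 erythroid genes 2 were higher (18.2%, beside the same 3.43%), Klf1 (0.77) and Car1 (0.53). All 4 calls were lost without mouse 1, and those of Dnase1l3 and Car1 also without mouse 2. Of 15 pancreatic acinar genes 1 was higher and 1, Cela1, was lower (6.67% each, beside 3.43% and 5.99% of all genes), and of 16 muscle genes 0 were called.

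Among secreted liver proteins, 4 of 25 acute phase genes were lower (16%, beside 5.99% of all genes) and 0 were higher. The 4 were Cd14, Orm2 (-0.80), Steap4 (-0.53) and Apcs (-0.48). Of 23 complement genes 3 were higher and 3 lower, 13% each beside 3.43% and 5.99% of all genes. Among the lower was C8a at 10.10, 10.09 and 9.71 (-0.68, adjusted p = 0.00996). The complement counts without mouse 1, 2 or 3 were 1, 1 or 2 higher and 2, 2 or 1 lower. Of 19 coagulation genes 1 was higher (5.26%, beside 3.43% of all genes), and 0 were without mouse 1 or 2. Of 15 genes of gluconeogenesis and insulin action 3 were higher (Gys2, Insr and Slc2a2) and 1 was lower (Igfbp1), 20% and 6.67% beside 3.43% and 5.99% of all genes. Of 18 arginine and urea cycle genes 2 were higher (Ddah1 and Otc), 11.1% beside 3.43% of all genes. Of 20 genes of choline and methyl group metabolism 2 were lower (Chka and Cth), 10% beside 5.99%. Several of these calls rested on single mice: Gys2, Insr, Orm2, Otc, Chka and Igfbp1 were lost without mouse 1, Slc2a2, Ddah1 and Igfbp1 without mouse 2, and Orm2, Steap4, C8a, Slc2a2, Ddah1, Otc, Chka and Igfbp1 without mouse 3.

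**Figure D5:**
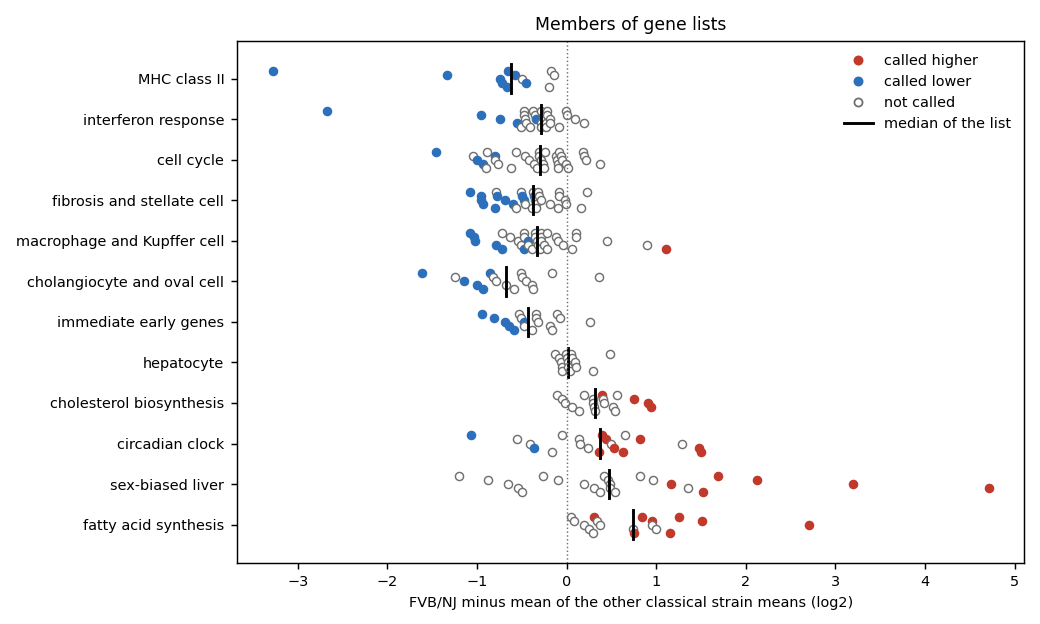
Difference of FVB/NJ from the mean of the 28 other strain means (log2, horizontal axis) for each measured member of 12 gene lists; filled points were called in limma over mice, open points were not, and black bars are list medians. The medians run from -0.68 for cholangiocyte genes and -0.62 for MHC class II to 0.75 for fatty acid synthesis, with hepatocyte genes at 0.02.

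The median SD of the 3 FVB/NJ mice over all genes was 0.154, beside a median pooled SD of 0.153 within the other strains. An SD from 3 mice more often falls short of the true spread than an SD pooled over many strains. These medians are therefore not like for like, and do not show that the FVB/NJ mice agreed as closely as the others. In 34 genes the SD of the FVB/NJ mice exceeded 1. The genes with the widest spread set mouse 1 apart. Ly6d was at 6.17 in mouse 1 and at 9.27 and 9.68 in the others, and Cyp2c55 at 5.65, 7.95 and 8.04. Zbtb16, a zinc finger factor, was high in mouse 1 at 7.54, with 4.93 and 4.61 in the others, and so were Pcp4l1 (6.97, 5.04 and 4.30) and Onecut1, a hepatocyte transcription factor (7.72, 5.23 and 5.52). None of these 5 was called. Pnpla3, described above, also had a wide spread, with an SD of 1.57 and mouse 1 the lowest (6.01, 9.04 and 8.22), and it was called.

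Against single strains, FVB/NJ differed in 1170 genes from SWR/J (6.84%), in 364 from SJL/J (2.13%) and in 358 from C57BL/6J (2.09%). The 3 contrasts share the FVB/NJ mice, and the number of mice differs, 2 of SWR/J, 3 of SJL/J and 2 of C57BL/6J, so the counts are not ranked. With C57BL/6J the comparison is of 1 FVB/NJ allele against none. The counts moved with single mice: without 1 of the SWR/J mice they were 486 or 390, without 1 of the SJL/J mice 119, 653 or 207, and without 1 of the C57BL/6J mice 99 or 163.

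Against SWR/J, 613 genes were higher and 557 lower. Gpnmb, a glycoprotein of lipid-laden macrophages, was at 9.02, 10.17 and 9.90 in FVB/NJ and at 6.89 and 5.99 in SWR/J, a difference of 3.25 (adjusted p = 2.78e-09). Gdpd3 differed by 4.96, Gstp3 by 3.19 and Per3 by 2.90. The largest deficits were in BC023105 (-3.95), Cyp3a16 (-2.80), Elovl3, an elongase of very long fatty acids (-2.80), and Sult3a1 (-2.70). Elovl3 was at 3.62, 3.75 and 3.99 in FVB/NJ and at 6.18 and 6.99 in SWR/J, while the 2 SWR/J mice were far apart for BC023105 (6.85 and 9.16) and Cyp3a16 (7.73 and 5.78). BC023105 was not called without SWR/J mouse 2 (-2.80, adjusted p = 0.09), Cyp3a16 not without SWR/J mouse 1 (-1.83, adjusted p = 0.15), and Sult3a1 not without FVB/NJ mouse 2 or 3 or either SWR/J mouse (adjusted p = 0.129 to 0.254).

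Against SJL/J, 152 genes were higher and 212 lower. Slco1a1 was at 2.88, 2.96 and 3.01 in SJL/J, and FVB/NJ was 6.96 higher (adjusted p = 2.04e-18). Gdpd3 was 5.13 higher, Sult3a1 3.23 and Slc15a2 2.78. D17H6S56E-5 (-2.94), Igsf23 (-2.49), Ccl24 (-2.23) and Tspan8 (-2.20) were lower, and Ccl24, the eotaxin that draws eosinophils, was at 5.87, 4.32 and 3.97 in FVB/NJ and at 7.54, 6.89 and 6.42 in SJL/J. Sult3a1, Slc15a2 and Tspan8 lost their call without FVB/NJ mouse 1 (adjusted p = 0.137, 0.0764 and 0.312) and without SJL/J mouse 1 or 3, and Slc15a2 and Tspan8 also without FVB/NJ mouse 2 (adjusted p = 0.071 and 0.0783).

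Against C57BL/6J, 158 genes were higher and 200 lower. Ctse, the aspartic protease cathepsin E, was at 8.79, 8.68 and 8.51 in FVB/NJ and at 3.22 and 3.32 in C57BL/6J, a difference of 5.39 (adjusted p = 2.46e-09). Slco1a1 was 5.67 higher, Cyp2c39 5.02 and Gdpd3 4.70. Gabra3 (-2.24), Ifi213 (-1.93), Sparcl1 (-1.88) and Cd72 (-1.86) were lower. Ifi213, of the Ifi200 family, was at 5.60, 5.42 and 5.45 in FVB/NJ and at 7.15 and 7.68 in C57BL/6J. Sparcl1 lost its call without C57BL/6J mouse 1 (-1.63, adjusted p = 0.0689).

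Some called genes lay side by side on the chromosomes. Of 16937 genes placed in the RefSeq order 1604 were called, and 282 of these stood next to another called gene of the same direction. How many would do so by placement alone was not worked out, so the 282 are a description. The longest run was Rps9, Pirb, Pira1, Gm14548 and Lair1, all lower, of which Pira1, an activating receptor of myeloid cells, was at 5.24, 5.27 and 5.02 (-1, adjusted p = 4.65e-05) and Lair1, an inhibitory collagen receptor of leukocytes, at 5.30, 4.81 and 4.92 (-0.54, adjusted p = 0.00671). A run of membrane-spanning genes of leukocytes, Ms4a7, Ms4a4c, Ms4a4b and Ms4a6c, was lower too, with differences of -0.85, -0.78, -1.16 and -1.02. MHC genes formed a pair of runs, H2-Ab1, H2-Aa and H2-Eb1, and H2-T24, H2-T23, H2-Bl and H2-T10, all lower. Dnase2b, Uox, which encodes urate oxidase, and Prkacb were a run of higher genes, by 0.50, 0.22 and 0.20. Paralogues such as the Pira, Ms4a and H2-T genes are alike in sequence, and array probes may read more than 1 of them.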

How the data were processed

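Each of 220 female F1 mice gave 1 liver RNA sample, read on 1 HT MG-430 PM array from Affymetrix. The deposited table holds log2 values that the authors made with GCOS and RMA, whose versions were not given in the sources used here. It has 45141 rows, of which 104 control probe sets were left out. All 220 samples had a strain label and were placed in 96 groups, and replicates were numbered in accession order.

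Probe sets were named from the platform annotation, and of 45037 probe sets 28898 had a single gene, 551 several and 15588 none. The probe set with the highest mean stood for each of 17097 genes. In limma 3.58.1 (R 4.3.3), 1 mean per strain was fitted over all mice (124 residual degrees of freedom), and FVB/NJ was set against the mean of the 28 other classical strain means. A second limma fit ran over 29 strain means (27 degrees of freedom). P-values were two-sided and adjusted by Benjamini-Hochberg over 45037 probe sets, with a threshold of 0.05. P-values of the first fit measure only the spread between mice of a strain, and those of the second the spread between strain means. Code was tested on simulated data. Promoter windows were searched with Python 3.11.15, and the plots used matplotlib 3.10.9.

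The group and its 39 gene lists were chosen with earlier results of these data known. The rule for named genes asked for a call by both tests and named none, so the 12 largest excesses and deficits, the genes whose FVB/NJ mice lay outside all others, the calls with strain as a random block and the probe set cases were added after their values were seen. Alternatives changed the mice in the fit, the reference strains, array centring and weights, the low-value filter and the treatment of probe sets. Whether sequence differences under the probes move these values was not tested.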

Additional observations from a re-analysis of the deposited data

Results flagged for a closer look

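A probe set with no gene in the annotation used here, 1442058_PM_s_at, entered no comparison of named genes and stood apart in FVB/NJ. It read 4.87, 4.56 and 4.69 in the 3 mice, and the other strain means ran from 2.55 to 4.47, with NOD/ShiLtJ the highest. The difference in limma was 1.77 over mice (adjusted p = 1.04e-31). Over strain means its adjusted p was 0.102. It was also called with strain as a random block (adjusted p = 7.37e-08).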

How the results depend on the processing

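Array signal limits these results, since RMA values near the floor have little room to fall, and 3 mice carry the FVB/NJ mean. No paired analysis was possible because replicates were numbered in accession order and pair no mice across strains. The 1611 genes called over mice became 212 against strains with label numbers below 100, 926 with array weights and 11 with strain as a random block, and 653 to 1266 without 1 FVB/NJ mouse. The alternatives for counts over gene lists and for genes named from a contrast with 1 strain were chosen after seeing the data. Over strain means 0 genes were called, 2 without the Swiss-derived strains (SWR/J, SJL/J and NOD/ShiLtJ) and 0 to 2 without 1 FVB/NJ mouse. Without 1 mouse the calls ranged from 390 to 1100 against SWR/J, from 119 to 653 against SJL/J and from 99 to 335 against C57BL/6J.

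Against strains with label numbers below 100, 77 of 17097 genes were called higher and 135 lower in all, so a count of 0 says little about a list. The counts of members called there were 0 for fatty acid synthesis, cholesterol synthesis, interferon response, fibrosis, macrophage, immediate early and clock genes. They were 1 for cholangiocyte genes and P450s, 2 for sex-biased genes and 3 for MHC class II. Without the Swiss-derived strains they were 13 for fatty acid synthesis, 8 for cholangiocyte and 12 for macrophage genes, and with classical mice only 2 for interferon and 14 for macrophage genes. Without 1 FVB/NJ mouse they ranged from 1 to 10 (fatty acid synthesis), 1 to 2 (cholesterol synthesis), 3 to 9 (MHC class II), 2 to 5 (interferon), 1 to 3 (cholangiocyte), 2 to 5 (fibrosis), 3 to 5 (macrophage), 1 to 2 (immediate early), 0 to 7 (clock), 2 to 4 (P450s) and 2 to 5 (sex-biased). Over all genes 769 were called higher and 1324 lower without the Swiss-derived strains, and 564 and 1048 with classical mice only. The cause of the shifts in these counts was not tested.

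Of 1579 alternative values for single genes, 1273 kept direction and side of the threshold, 293 kept direction but were no longer called, 1 became called and 12 changed sign. Against label numbers below 100, Cyp2c55 was -0.03, Fdft1 -0.15 and Zbtb16 0.08. With probe sets averaged, Hsd17b13 was 1.62 and Zbtb16 0.14. Without 1 FVB/NJ mouse, Ly6d ranged from -1.39 to 0.36, Onecut1 from -0.42 to 0.82, Pcp4l1 from -0.37 to 0.97, Cyp2c55 from -0.13 to 1.07 and Zbtb16 from -1.13 to 0.34. Cyp2c55 was -0.09 without mouse 2, and Zbtb16 was 0.18.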
